A study of Mus musculus with 6 samples.

Results

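The 34 genes described here encode ligands, latent-complex proteins, receptors, Smads, nuclear repressors and well known target genes of the transforming growth factor beta (TGF-beta) and bone morphogenetic protein (BMP) pathways, out of 18193 genes with a probe set of their own in the deposited table. They were taken by name, not by their values, though with earlier results of these data known, and all 34 were found. RNA came from 344SQ cells, grown from a subcutaneous tumour of 1 of the p53R172H∆g/+ K-rasLA1/+ mice, a lung tumour model with a mutant p53 allele and an activated K-ras allele. Both groups were stable GFP-positive, puromycin-selected pools made with a lentiviral vector, either one that expresses the miR-200b-200a-429 cluster or the control vector. Each group holds 3 cultures, named by letter (A to C) within the control and the miR-200 group, with 1 array per culture. Whether the cultures of a group were transduced separately is not in the labels. The p-values then measure only the spread between these cultures, which may be technical, and a lasting difference between the pools cannot be told apart from the effect of the microRNAs. In such bulk RNA fewer cells of a kind and less RNA per cell cannot be told apart either.

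TGF-beta, activin and BMP ligands are secreted dimers that bind pairs of receptor kinases. TGF-beta and activin receptors act through Smad2 and Smad3, BMP receptors through Smad1, Smad5 and Smad9, and both kinds of Smad enter the nucleus with Smad4. Smad6 and Smad7 are inhibitory Smads that are themselves induced by the pathway. In tumour cells of epithelial origin TGF-beta is known for driving the change to a mesenchymal state, which the miR-200 family is known to oppose.

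The 3 main mature microRNAs of the introduced cluster are shown because they are what the labels say sets the groups apart. The capitals mark the seed, bases 2 to 8, which pairs with target messages. The sequences are those of the RefSeq table for GRCm38.p6, where the cluster lies on the minus strand of chromosome 4.
miR-200b-3p (chr4:156055685-156055706): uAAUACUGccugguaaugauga
miR-429-3p (chr4:156053916-156053937): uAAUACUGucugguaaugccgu
miR-200a-3p (chr4:156054911-156054932): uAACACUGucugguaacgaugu
The seeds of miR-200b-3p and miR-429-3p are the same, and that of miR-200a-3p differs from it at 1 base. The microRNAs themselves were not analysed here, and neither were target sites in the messages of the 34 genes.

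Values are log2 signals after quantile normalization, means are given ± SD with n = 3, and differences are miR-200 minus control ± the standard error of the limma fit. Where a gene has several probe sets, the value is that of the brightest. Background was gauged by spots that mouse RNA should leave empty, those of the bacterial trp controls, whose highest signal was 5.28 on the log2 scale. For 32 of the 34 genes at least 1 group mean lay above it. One array of each group, control B and miR-200 A, differed from the remaining 4. Cell cycle genes (24 measured) had a median of 8.76 there in the control and 8.73 in the miR-200 culture, against 11.36 to 11.64 on the remaining arrays. The deviations of these arrays from their group means correlated at 0.71 over the 27023 brighter probe sets. The differences between miR-200 A and control B and those among the other 4 arrays are both given below. By their mean over all 6 arrays 10 of 10 epithelial markers lay above the gauge, although Cldn4 and Esrp1 lay under it in every control. The epithelial list had a mean signal of 9.93 to 10.06 in the control cultures and 11.31 to 11.54 in the miR-200 cultures. The threshold was passed by 3 of its genes. Cldn4 read 3.10 to 4.13 in the controls and 8.60 to 10.33 in the miR-200 cells, and Esrp1 2.68 to 3.49 and 8.90 to 9.64. Muc1 and Epcam were also higher in every miR-200 culture, whereas Krt19 was lower in each (12.96 to 13.03 against 13.18 to 13.53). The groups of Cdh1, Krt8, Krt18, Krt7 and Esrp2 overlapped. Of 10 lung markers 5 lay above the gauge, with Sftpc, Sftpa1 and Scgb1a1 under it, and 2 passed the threshold. The mean of the list ranged from 6.45 to 6.52 in the controls and from 5.69 to 5.94 in the miR-200 cells. Sftpb read 12.34 to 13.01 and 6.51 to 6.57, and Aqp5 12.23 to 12.36 and 10.79 to 10.91. The groups of the other lung markers overlapped. The mean of 10 fibroblast and smooth muscle markers ranged from 4.65 to 5.01 and from 5.02 to 5.14 (5 of 10 above the gauge), with Pdgfra, Pdgfrb, Dcn, Col3a1 and Acta2 under the gauge. For 8 endothelial markers it ranged from 4.40 to 4.94 and from 4.78 to 5.01. Cdh5, Tek and Cldn5 lay above the gauge, and Pecam1, Kdr, Vwf, Emcn and Tie1 under it. For 8 blood markers the mean ranged from 5.61 to 6.06 and from 5.92 to 6.61. Of these, 5 lay above the gauge (Ptprc, Cd68, Cd14, Csf1r and Cd79a), and Cd3e, Itgam and Nkg7 under it. Over the 6 arrays Csf1r read 9.34 to 9.94 and Cd14 9.54 to 11.86. The part of these markers in the results was not tested.

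No gene of the pathway passed the threshold in the comparison of the groups, but 14 of the 34 had 3 miR-200 values on one side of the 3 control values, 7 higher and 7 lower. The lower genes were the ligands Bmp4 and Tgfb2, the inhibitory Smad6, the pseudoreceptor gene Bambi (under the gauge on every array), the corepressor gene Ski, and the BMP targets Id1 and Id3. The higher ones were the activin subunit gene Inhba, Bmp7, Smad1, Smad5, Tgif1, Ccn2 and Junb. In limma 0 of 34 had an adjusted p under 0.05, against 0.945% of all genes, and 11 had an unadjusted p under 0.05, 5 higher and 6 lower, against 14.8% of all genes. Over all 18193 genes 11.4% had groups that did not overlap with higher values in the miR-200 cells, and 12.1% with lower values. The median difference of the 34 genes was 0.06, and that of all genes 0.0014; after centring on array medians these became -0.04 and -0.07. Of the 34 genes 6 differed by 1 or more on the log2 scale, as did 1372 of all 18193 genes.

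**Figure D1:**
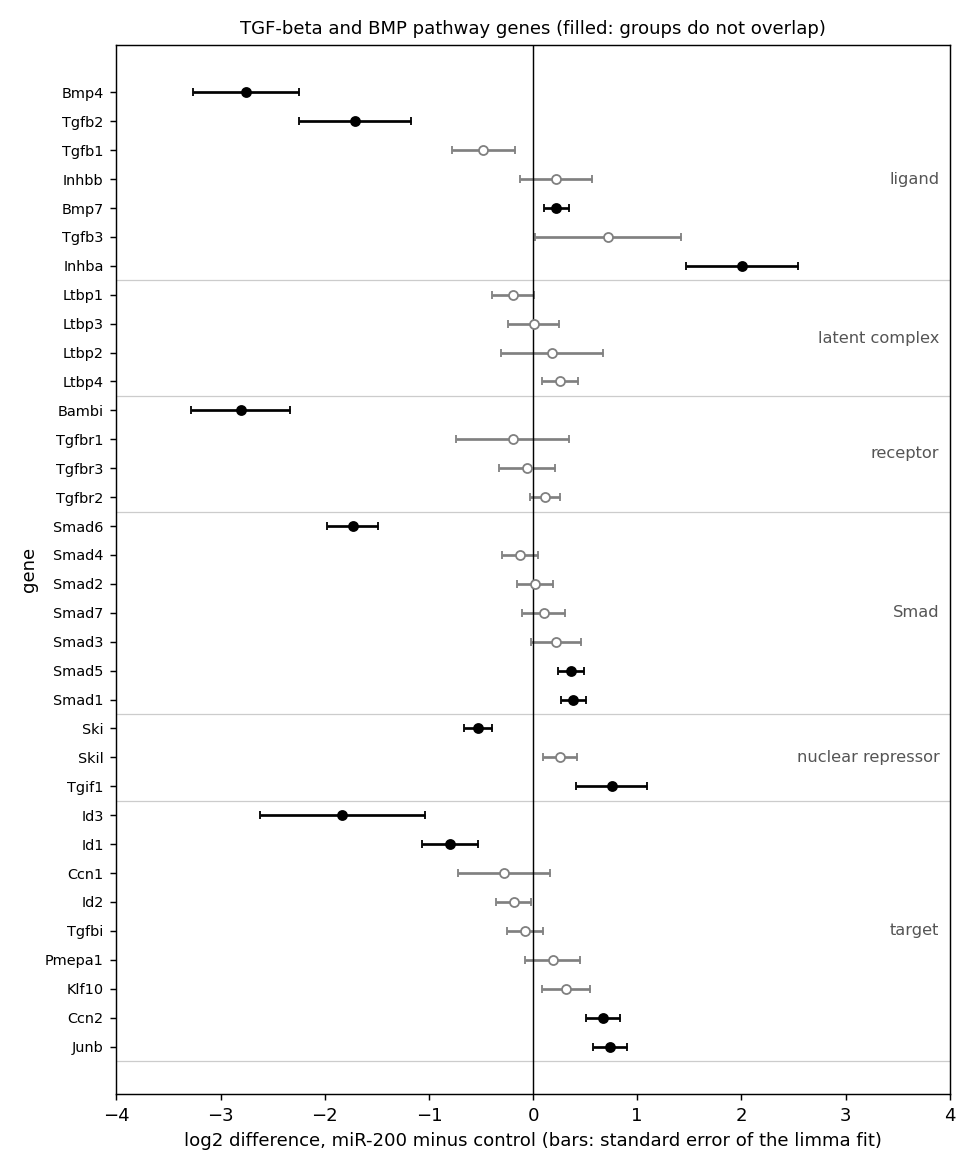
Log2 difference between miR-200 and control cells for the 34 genes, grouped by role, with bars for limma's standard error (3 arrays per group). Filled points mark the 14 genes whose groups do not overlap. Bambi, Bmp4, Id3, Smad6 and Tgfb2 lie lowest, at -2.81 to -1.71, and Inhba highest, at 2.00. The Bambi signal lies under the background gauge on every array.

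Among the ligands, Bmp4 was lower in the miR-200 cells and Inhba higher. Bmp4, a BMP that signals through Smad1 and Smad5, read 10.78, 10.55 and 10.68 on control A, B and C and 9.06, 7.51 and 7.17 on miR-200 A, B and C. The controls lay within a narrow range, whereas miR-200 A stood above the other miR-200 cultures. The means were 10.67 ± 0.12 and 7.91 ± 1.01, a difference of -2.76 ± 0.51, which is 6.76-fold lower (limma, adjusted p = 0.102). The difference was -1.49 between miR-200 A and control B and -3.39 among the other 4 arrays. Without miR-200 A it was -3.33 and passed (adjusted p = 0.0153, with 1.02% of all genes). It also passed when the dimmest 40% of probe sets were left out (adjusted p = 0.0352, with 3.72% of the genes kept passing).

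Inhba encodes the beta A chain of activin A, a ligand of the Smad2 and Smad3 branch. Its signal was 6.95, 8.60 and 6.96 in control A, B and C and 10.07, 9.12 and 9.34 in miR-200 A, B and C. Within each group the array that stands apart was the highest. The difference was 2.00 ± 0.54, 4.01-fold higher (adjusted p = 0.204), and it measured 1.47 between miR-200 A and control B and 2.27 among the other 4 arrays. The second Inhba probe set lay under the gauge in both groups, at means of 4.49 and 4.83, so it holds no measured level.

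Tgfb2, which encodes a TGF-beta isoform, gave 7.87, 9.69 and 7.81 in control A, B and C and 6.92, 6.70 and 6.62 in miR-200 A, B and C. Control B was the highest by more than 1 log2 unit, and the miR-200 cultures were close together. The difference was -1.71 ± 0.54, 3.27-fold lower (adjusted p = 0.259). It shrank to -1.10 without control B, with -2.77 between miR-200 A and control B and -1.18 among the other 4 arrays. The other 3 probe sets of the gene had larger differences, -3.36 ± 0.67, -3.08 ± 0.66 and -3.27 ± 0.64, none past the threshold (adjusted p = 0.115 to 0.137). Their miR-200 means lay under the gauge, and all 4 probe sets had groups that did not overlap. The mean over the 4 probe sets differed by -2.86 (adjusted p = 0.119).

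The remaining ligand genes differed little or not beyond their spread. Bmp7, another BMP, read 7.36, 7.29 and 7.39 in the controls and 7.49, 7.62 and 7.59 in the miR-200 cells, a difference of 0.22 ± 0.12 (adjusted p = 0.466). The mean of its 3 probe sets differed by -0.06 instead. The dimmer ones lay under the gauge in both group means, at 4.09 and 3.39 and at 2.66 and 2.96. Tgfb1, the best known isoform, read 8.02 ± 0.48 and 7.54 ± 0.32 with overlapping groups (-0.48 ± 0.30, adjusted p = 0.547). Tgfb3 lay under the gauge in both group means, 4.26 and 4.98. Inhbb, the activin beta B gene, read 5.30 and 5.52, close to the gauge. Its dimmer probe set read 3.04, 4.06 and 3.46 in the controls and 7.28, 4.71 and 4.76 in the miR-200 cells, so the groups were separate but only miR-200 A was above the gauge (difference 2.07 ± 0.77, adjusted p = 0.324).

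**Figure D2:**
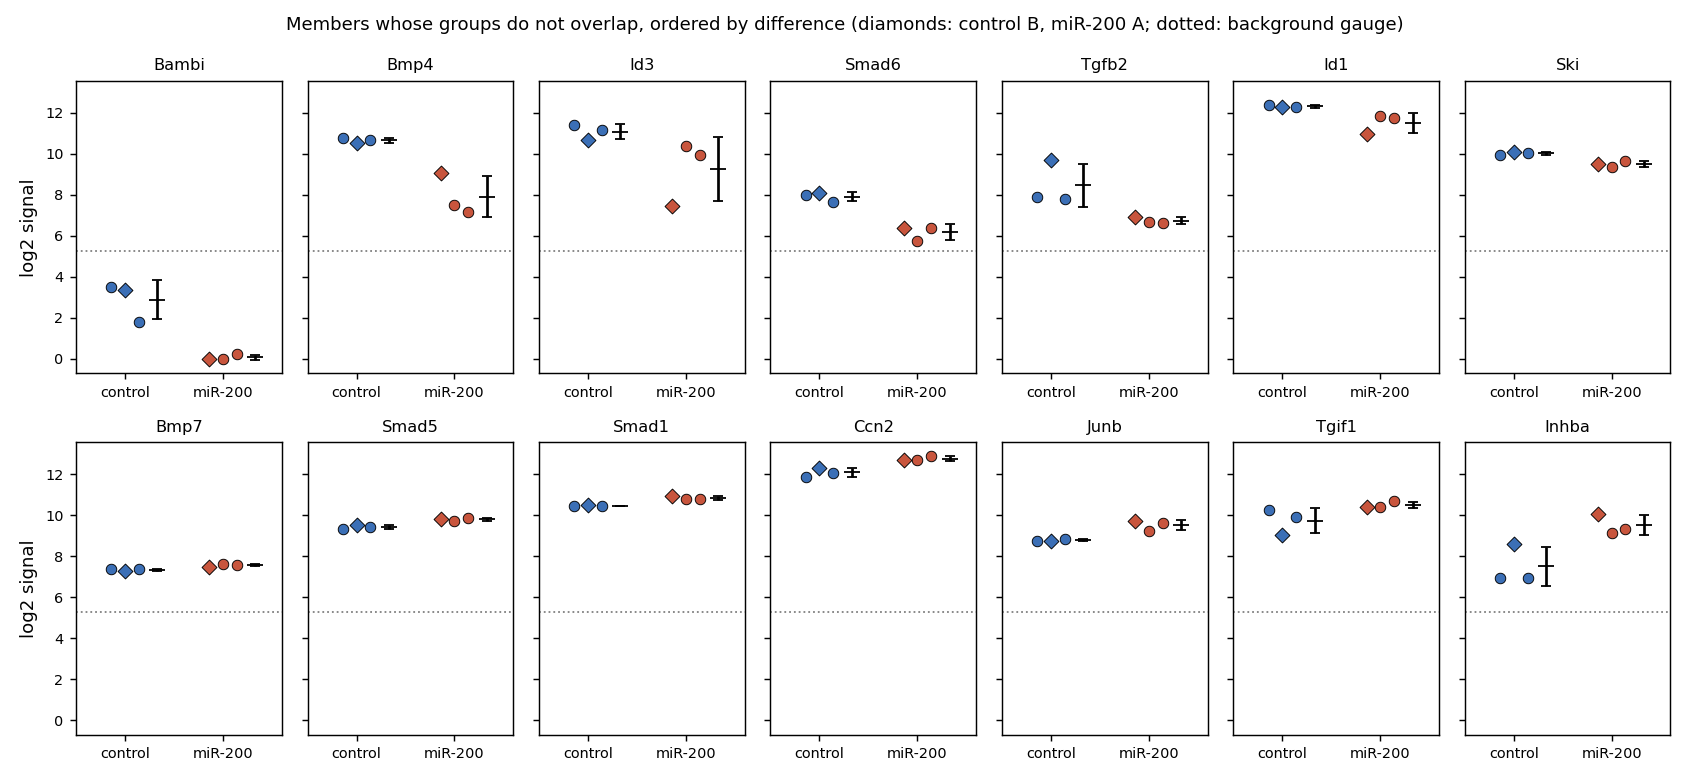
Log2 signal of the 14 genes whose groups do not overlap, 1 point per array, with the group mean and SD beside the points (n = 3); diamonds are control B and miR-200 A, and the dotted line is the background gauge of 5.28. Bambi lies under the gauge on all 6 arrays, and Id3 reads 7.47 on miR-200 A against 10.37 and 9.92 on the other miR-200 arrays.

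The latent TGF-beta binding proteins, which hold TGF-beta in the matrix, gave no gene whose representative groups were separate. Differences of Ltbp1, Ltbp2, Ltbp3 and Ltbp4 ran from -0.19 to 0.26, with adjusted p of 0.573 or more. The probe sets of Ltbp3 disagreed. The brightest read 12.11 ± 0.29 and 12.11 ± 0.35, whereas the dimmest went from 5.71, 6.29 and 4.89 in the controls to 7.41, 7.06 and 7.60 in the miR-200 cells (1.73 ± 0.39, adjusted p = 0.147). A further one differed by 1.12 ± 0.27 (adjusted p = 0.172) and its groups were separate as well. Which Ltbp3 transcripts each probe set detects was not analysed here.

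The signalling receptors showed no separated groups either. Tgfbr2, the ligand-binding type II receptor, read 12.26 ± 0.18 and 12.37 ± 0.08 (0.12 ± 0.15, adjusted p = 0.773). Tgfbr1, its type I partner, moved with the arrays that stand apart, reading 11.03 in control B, 10.87 in miR-200 A and 9.51 to 9.73 in the other 4 cultures. Its difference was -0.19 ± 0.54 (adjusted p = 0.911). A dim Tgfbr1 probe set near the gauge had separate groups, 0.44 ± 0.17 higher (adjusted p = 0.348). Tgfbr3, the co-receptor betaglycan, lay near the gauge at 5.32 and 5.26. Bambi, a receptor-like protein without a kinase domain that is induced by BMP signalling and dampens it, read 3.51, 3.35 and 1.80 in the controls and 0.00, 0.00 and 0.24 in the miR-200 cells. Both groups lay under the gauge, so no fold is given; the difference of the values was -2.81 ± 0.48 (adjusted p = 0.0896; adjusted p = 0.0368 without control C, where 0.154% of all genes passed).

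Of the Smad genes, Smad6 had the largest difference, and of the 34 genes it had the lowest adjusted p. Smad6 acts mainly against BMP receptors and is a BMP target itself. It read 7.98, 8.11 and 7.65 in the controls and 6.41, 5.75 and 6.39 in the miR-200 cells. Every miR-200 value lay more than 1 log2 unit under every control value. The means were 7.92 ± 0.23 and 6.18 ± 0.38, a difference of -1.73 ± 0.24 and 3.32-fold lower (adjusted p = 0.0590). The arrays that stand apart made little difference to it, with -1.70 between miR-200 A and control B and -1.75 among the other 4. It passed in 6 of the 16 alternative settings, such as the variance trend (adjusted p = 0.0116, 2.72% of genes). Another was the mean of probe sets (adjusted p = 0.0403, where 1.47% of genes passed). Smad6 has 1 probe set, so its own values are the same in that setting. Its adjusted p reached 0.321 with the replicate block. With that block 3 of the 34 genes were higher and 5 lower at an unadjusted p under 0.05, against 9.45% of all genes.

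Smad1 and Smad5, which carry the BMP signal, had slightly higher values in the miR-200 cells. Smad1 read 10.44, 10.48 and 10.44 in the controls and 10.95, 10.78 and 10.79 in the miR-200 cells (0.39 ± 0.12, 1.31-fold, adjusted p = 0.255), and the groups of all 3 of its probe sets were separate and higher. Smad5 read 9.34, 9.53 and 9.42 against 9.81, 9.72 and 9.85 (0.36 ± 0.12, adjusted p = 0.289), but the mean of its 3 probe sets differed by 0.17. Smad2, Smad3, Smad4 and Smad7 had overlapping groups, with differences from -0.12 to 0.22 and adjusted p from 0.727 to 0.977. Smad3 read 10.80 on miR-200 A and 10.01 to 10.12 on the other 5 arrays. One dimmer probe set of Smad4 was lower in every miR-200 culture (-0.27 ± 0.14, adjusted p = 0.448), and one of Smad3 was higher in each (0.30 ± 0.15, adjusted p = 0.442).

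The nuclear repressors did not go one way. Ski, which binds Smads and holds target genes silent, read 9.96, 10.10 and 10.03 in the controls and 9.53, 9.35 and 9.63 in the miR-200 cells, a difference of -0.53 ± 0.13 (1.44-fold lower, adjusted p = 0.188). Its second probe set was lower too (-0.40 ± 0.19). Skil, its relative and a TGF-beta target, overlapped on the brightest probe set (0.26 ± 0.16, adjusted p = 0.547). On the other it went from 7.38, 7.63 and 7.52 to 8.78, 8.24 and 8.35, with separate groups (0.95 ± 0.19, adjusted p = 0.120). Tgif1, a homeobox repressor of Smad2 and Smad3 targets, read 10.26, 9.04 and 9.93 against 10.41, 10.40 and 10.68 (0.75 ± 0.34, adjusted p = 0.397). Control B was the low value, and without it the Tgif1 difference was 0.40.

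**Figure D3:**
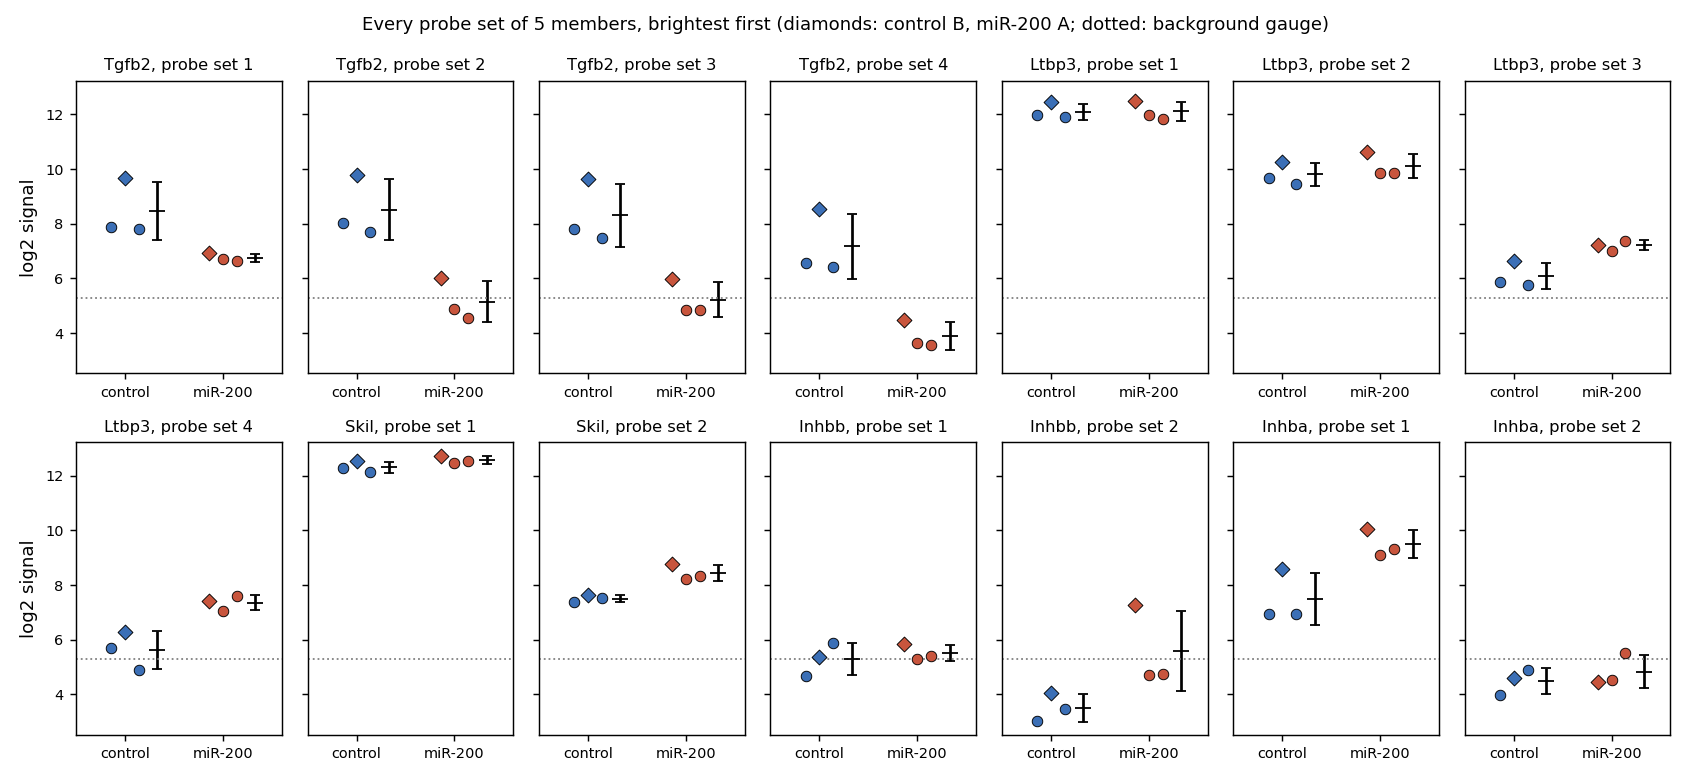
Log2 signal of every probe set of Tgfb2, Ltbp3, Skil, Inhbb and Inhba on each array, brightest probe set first, with the group mean and SD (n = 3); diamonds are control B and miR-200 A, and the dotted line is the background gauge. All 4 Tgfb2 probe sets are lower in the miR-200 cells, whereas the Ltbp3 probe sets range from a difference of 0.004 on the brightest to 1.73 on the dimmest.

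Id1 and Id3, which encode inhibitors of basic helix-loop-helix factors and are direct BMP targets, were lower in the miR-200 cells. Id1 read 12.39, 12.27 and 12.28 in the controls and 10.94, 11.83 and 11.76 in the miR-200 cells. The difference was -0.80 ± 0.27, 1.74-fold lower (adjusted p = 0.282), and -0.52 without miR-200 A, the lowest array. Id3 read 11.38, 10.69 and 11.18 against 7.47, 10.37 and 9.92, and miR-200 A again lay far under the others. Its difference of -1.83 ± 0.79 (3.56-fold lower, adjusted p = 0.385) became -0.94 without miR-200 A. Between miR-200 A and control B the Id3 values differed by -3.22, and among the other 4 arrays by -1.14. Id2, a relative under wider control, overlapped (-0.19 ± 0.17, adjusted p = 0.669).

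The window before the gene start of Id3 and of Smad6 is shown because both are known BMP targets with lower values here; Id1 had no entry in the table. Of the 34 genes 22 were matched in the RefSeq promoter table for GRCm38.p6. The 250 bases before each start were searched on both strands for CAGAC, a Smad-binding motif, and for GGCGCC, a GC-rich motif of BMP-responsive elements. Capitals mark matches.
Id3 (chr4:136143572-136143821, plus strand): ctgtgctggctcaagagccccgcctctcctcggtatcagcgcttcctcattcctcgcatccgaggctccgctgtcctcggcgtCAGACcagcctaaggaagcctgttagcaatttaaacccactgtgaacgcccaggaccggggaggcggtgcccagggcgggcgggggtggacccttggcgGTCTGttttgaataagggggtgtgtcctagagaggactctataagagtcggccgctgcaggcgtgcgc
Smad6 (chr9:64022060-64022309, minus strand): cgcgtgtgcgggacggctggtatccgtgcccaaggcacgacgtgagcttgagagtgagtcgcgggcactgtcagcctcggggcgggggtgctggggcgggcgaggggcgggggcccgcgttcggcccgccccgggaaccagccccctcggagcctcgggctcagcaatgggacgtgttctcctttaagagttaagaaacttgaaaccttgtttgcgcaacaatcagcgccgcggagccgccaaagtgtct
Id3 holds CAGAC 2 times, starting 167 and 68 bases before the gene start, and no GGCGCC, and Smad6 holds neither. Of the 32851 windows listed for all genes, 42.2% hold CAGAC and 9.59% hold GGCGCC, so the matches of Id3 are common ones, and no match says only that these letters are not in this window.

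The other target genes did not go one way. Ccn2, a matricellular protein also known as connective tissue growth factor, read 11.88, 12.31 and 12.07 in the controls and 12.69, 12.68 and 12.90 in the miR-200 cells (0.67 ± 0.16, adjusted p = 0.171). Junb, an AP-1 transcription factor gene, read 8.76, 8.75 and 8.84 against 9.70, 9.24 and 9.63 (0.74 ± 0.17, 1.67-fold higher, adjusted p = 0.150). Both had their groups apart, with the control values close together for Junb. Klf10, an early TGF-beta response gene, differed by 0.32 ± 0.23, and Pmepa1, a membrane protein that restrains Smad2 and Smad3, by 0.19 ± 0.26, both with overlapping groups (adjusted p = 0.600 and 0.796). Ccn1, a relative of Ccn2, read 11.35 on miR-200 A and between 12.29 and 12.82 on the other 5 arrays, with a difference of -0.28 ± 0.44 (adjusted p = 0.828). Tgfbi, a secreted matrix protein named for its induction by TGF-beta, read 6.98 ± 0.09 and 6.90 ± 0.25 on its brightest probe set (adjusted p = 0.879). Another Tgfbi probe set went from 5.72, 5.66 and 5.85 to 4.54, 3.69 and 4.01, under the gauge in the miR-200 cells (-1.66 ± 0.24, adjusted p = 0.0649).

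**Figure D4:**
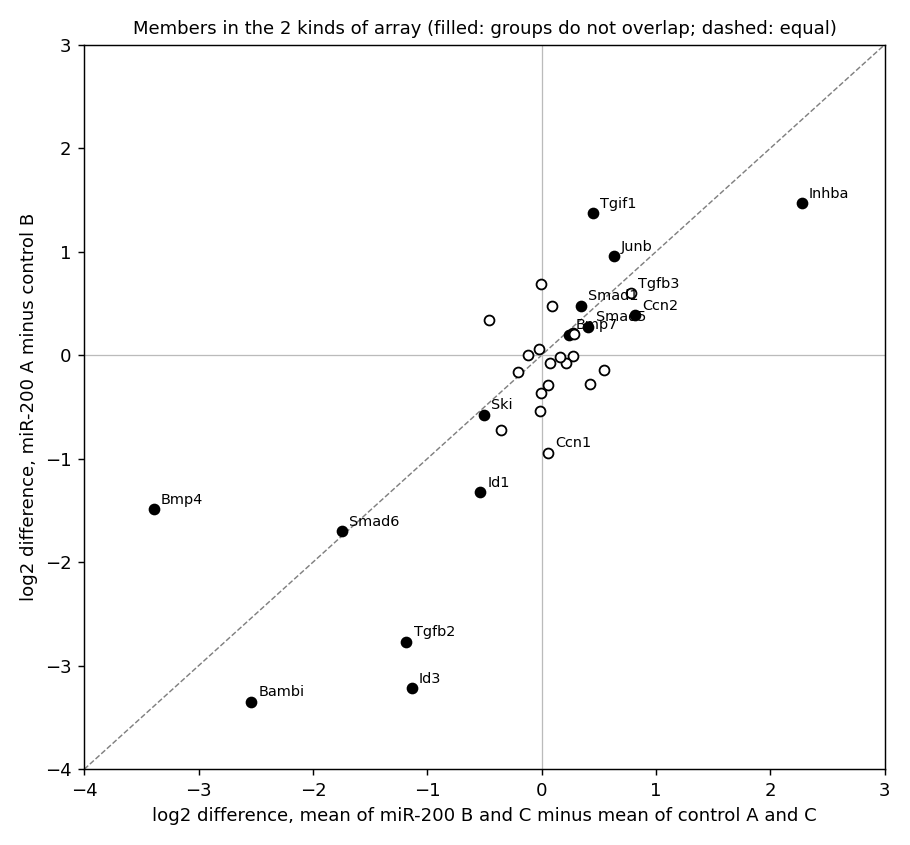
Log2 difference of each of the 34 genes between miR-200 A and control B (vertical axis) and between the means of miR-200 B and C and of control A and C (horizontal axis), with filled points for genes whose groups do not overlap, whose sign is the same on both axes by construction. Smad6 lies close to the dashed line of equal differences, Bmp4 and Inhba differ more on the other 4 arrays, and Id3, Id1 and Tgfb2 differ more between miR-200 A and control B.

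More of these genes passed when the arrays that stand apart were given a 2-level term of their own. These arrays were picked out from the expression values being tested, and the p-values with the term are therefore smaller than they should be, by how much is not known. With it, Inhba (adjusted p = 0.0363) and Smad6 (adjusted p = 0.0471) passed, and 2.64% of all genes did. With the term and without the dimmest 40% of probe sets, 29 of the 34 genes were measured. In that fit 4 rose (Inhba, Smad1, Ccn2 and Junb) and 6 fell (Tgfb2, Bmp4, Smad6, Ski, Id1 and Id3), against 7.02% of genes higher and 10.7% lower among the 12806 kept. The lowest adjusted p were 0.00163 for Inhba, 0.00300 for Smad6 and 0.00652 for Bmp4. When both arrays were left out instead, none passed, against 0.319% of all genes. In that fit 7 of them were higher and 8 lower before adjustment (p under 0.05), against 22.4% of all genes. Bmp4, Inhba and Tgfb2 had adjusted p of 0.0551, 0.0579 and 0.0756.

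A wider list of 97 further pathway genes, of which 88 were measured, gave 0 genes past the threshold in limma, with 3 higher and 5 lower at an unadjusted p under 0.05 (14.8% of all genes). The 0 became 3 without the dimmest 40% (Amhr2, Fst and Itgb1, with 51 measured), against 3.72% of the genes kept. It became 2 with the variance trend (Fst and Itgb1), against 2.72% of all genes. With array weights it was 4 (these with Amhr2 and Bmp2), against 3.33% of all genes. With the 2-level term it was 3 (Bmp2, Fst and Smad9), against 2.64%. With the term and without the dimmest 40% it was 10 of 51 (6 higher, 4 lower), against 17.7% of the genes kept (7.02% higher, 10.7% lower). The median difference of the 88 genes was -6.9e-05. Of them, 8 had separate groups with higher and 10 with lower values, no more than the shares of 11.4% and 12.1% over all genes. The largest separated difference above the gauge was that of Bmp2, a close relative of Bmp4, with 8.55, 9.50 and 8.55 in the controls and 7.80, 5.64 and 5.81 in the miR-200 cells (-2.45 ± 0.65, 5.46-fold lower, adjusted p = 0.204). As with Bmp4, miR-200 A was the highest of its group. Bmp2 was the 1 gene of either list that passed when both arrays that stand apart were left out (adjusted p = 0.0480).

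Fst, which encodes the activin-binding protein follistatin, read 6.54, 7.07 and 6.54 in the controls and 8.82, 8.22 and 8.42 in the miR-200 cells. Every miR-200 value lay more than 1 log2 unit over every control value. Its difference was 1.77 ± 0.24, 3.41-fold higher (adjusted p = 0.0524), with 1.75 between miR-200 A and control B and 1.78 among the other 4 arrays, and the second probe set differed by 2.75 ± 0.48. Fst passed with the 2-level term (adjusted p = 0.0172) and without the dimmest 40% (adjusted p = 0.0136). Inhba and Fst, the ligand chain and its binding protein, were thus both higher in all 3 miR-200 cultures.

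Atoh8, a helix-loop-helix gene known as a BMP target, was lower, with 7.57, 7.28 and 6.78 against 6.03, 6.37 and 6.26 (-0.99 ± 0.24, adjusted p = 0.171). Smad9, the third BMP Smad, passed with the 2-level term (adjusted p = 0.0472) but lay under the gauge in both groups, so no fold is given. Itgb1, the integrin beta 1 gene, read 10.63, 10.85 and 10.73 against 11.68, 11.41 and 11.71 (0.86 ± 0.15, adjusted p = 0.0896). It passed without the dimmest 40%, with array weights and with the variance trend (adjusted p = 0.0303, 0.0487 and 0.0215). It did not pass with the 2-level term alone (0.0586), with control B and miR-200 A dropped (0.136) or with the replicate block (0.405). For Itgb1 the mean of probe sets differed by only 0.43 (adjusted p = 0.228). Its 3 brighter probe sets differed by 0.86 to 0.88, while 3 dim ones overlapped. The type I receptor gene Acvr1 differed by 0.51 ± 0.20, the deubiquitinase gene Usp15 by 0.65 ± 0.26, and Itgb6, part of an integrin that activates latent TGF-beta, by 0.52 ± 0.26. The other Usp15 probe sets had overlapping groups, and the mean of its probe sets differed by 0.22 (adjusted p = 0.590). Itgb6 lay near the gauge, at means of 5.44 and 5.96, and its second probe set, at 5.14 and 5.75, had overlapping groups. Amhr2, the receptor of anti-Müllerian hormone, differed by -0.62 ± 0.12. For Acvr1, Usp15, Itgb6 and Amhr2 the adjusted p ran from 0.114 to 0.437.

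**Figure D5:**
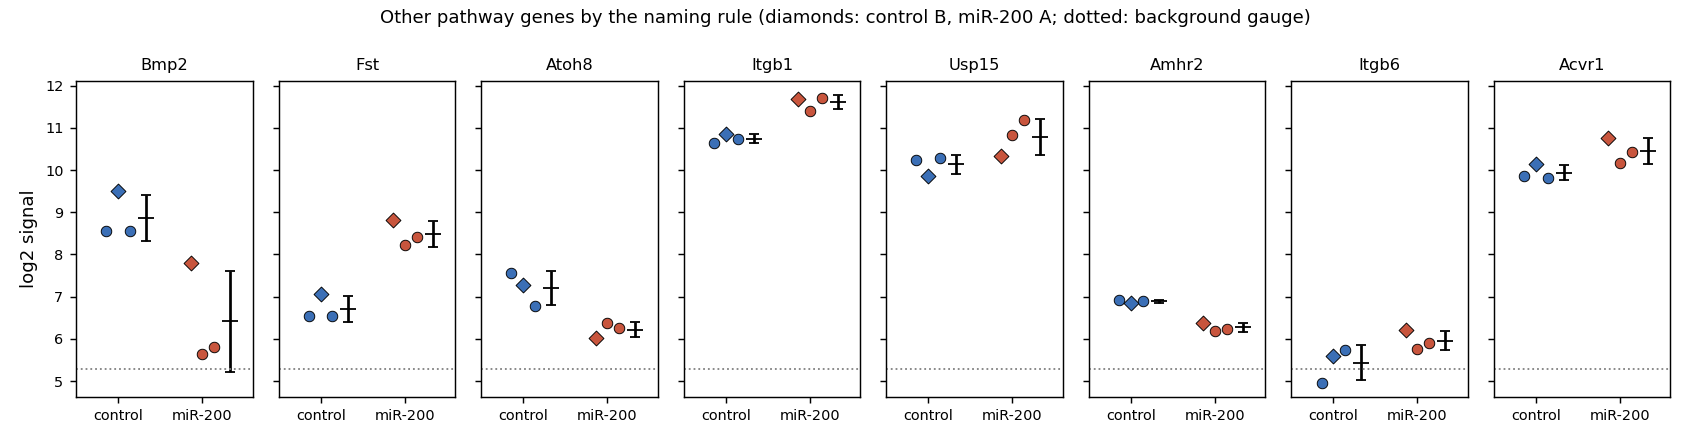
Log2 signal of the 8 further pathway genes with the largest differences among those with separate groups and a group mean above the background gauge (dotted line), 1 point per array with the group mean and SD (n = 3); diamonds are control B and miR-200 A. Bmp2 reads 5.64 to 7.80 in the miR-200 cells against 8.55 to 9.50 in the controls, and Fst 8.22 to 8.82 against 6.54 to 7.07.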

How the data were processed

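The deposited table holds log2 signals for 45101 probe sets on 6 Affymetrix arrays, 3 per group. Biotin-labelled cRNA was hybridized, per the labels' protocols. The authors' summarisation and normalization of the deposited log2 values are not given in the sources used here. Base 2 was read from the numbers: for 97.9% of them, 2 to that power is a number with 2 decimals. Between 1578 and 1718 probe sets per array lie at 0, a floor. The labels name the 430A 2.0 design, while the probe annotation is that of a larger one.

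Arrays were quantile normalized (limma 3.58.1, R 4.3.3), and 64 control probe sets were left out. Of 45037 others, 34945 carry 1 symbol, updated for 34741 through RefSeq gene numbers (GRCm38.p6); 932 carry several and 9160 none listed. The brightest probe set stands for a gene. lmFit and eBayes compared the groups (two-sided) with Benjamini-Hochberg adjustment over all 45037 and a threshold of 0.05. The code of the fit was checked on simulated arrays, which lacked the deviation shared by control B and miR-200 A. The members, lists and alternatives were chosen with earlier results of these data known, as was the background gauge. Values were given per array for members past the threshold or with separate groups, and for up to 8 genes of the wider list of 97 pathway genes with the largest separated differences above the gauge; other probe sets and Smad9 were named after their values were seen. The precision is limited by the number of arrays. Same-letter arrays deviated with correlations of -0.58, -0.67 and 0.43, so the letters were not taken to pair the cultures.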

Additional observations from a re-analysis of the deposited data

How the results depend on the processing

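Genes chosen for separate groups keep their sign by construction when arrays are left out or weighted, and the filter, variance trend, replicate block and 2-level term leave the difference itself as it is, so those settings say nothing of their direction. Of these 14 genes Bmp7 changed sign with the mean of probe sets (-0.057), which takes in its dimmer probe sets under the gauge. The count of the 34 genes past the threshold in limma was 0 higher and 0 lower, against 0.945% of all genes. It stayed so as deposited (0.945% of all genes), after median centring (1.04%), without both arrays that stand apart (0.319%) and with the replicate block (0 genes). It became 2 lower without the dimmest 40%, with array weights and with the variance trend (Bmp4 and Smad6 each time). In these settings 3.72%, 3.33% and 2.72% of genes passed. With the mean of probe sets it was 1 lower (Smad6, which has 1 probe set), against 1.47%. With the 2-level term it was 1 higher and 1 lower, against 2.64%. With that term and without the dimmest 40% it was 4 higher and 6 lower, against 7.02% and 10.7% of the genes kept. Without 1 array, 0 to 1 were lower: Bambi without control C (0.154% of all genes) and Bmp4 without miR-200 A (1.02%). The settings without the dimmest 40% adjust over fewer probe sets; beyond that the cause was not tested. The cultures share only a letter: same-letter correlations had both signs, so the replicate block is not a paired analysis.

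Other changes of sign concerned genes with overlapping groups. Ltbp3 had -0.040 as deposited, -0.11 after centring, -0.023 without both arrays and -0.016 when arrays were weighted; Smad2 -0.044 as deposited, -0.11 centred and -0.038 with the mean of probe sets; Tgfbr3 0.014, 0.23 and 0.057 as deposited, with the mean of probe sets and without both arrays; Smad7 -0.031 centred; Tgfbr1 0.069 with the mean of probe sets. Without both arrays Smad3 had -0.0092 and Ccn1 0.056. Without 1 array the ranges were -0.093 to 0.51 (Inhbb), -0.15 to 0.60 (Ltbp2), -0.19 to 0.17 (Ltbp3), -0.64 to 0.24 (Tgfbr1), -0.24 to 0.16 (Tgfbr3), -0.087 to 0.15 (Smad2), -0.022 to 0.37 (Smad3), -0.22 to 0.025 (Smad4), -0.010 to 0.27 (Smad7), -0.53 to 0.21 (Ccn1) and -0.17 to 0.064 (Tgfbi). Signal over background limits Bambi and Tgfb3, under the gauge in both groups.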
